A study of Mus musculus with 6 samples.

Results

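The T cell receptor complex and its first signalling enzymes were followed in the uterus of pregnant mice between day 15.5 and day 18.5 after mating. The group comprised 10 genes: the CD3 chains Cd3d, Cd3e and Cd3g, the coreceptors Cd4, Cd8a and Cd8b1, the adhesion and modulatory receptors Cd2 and Cd5, and the kinases Lck and Zap70. A probe belonged to the group when the symbol on its own line of the authors' comparison table was one of these names. This gave 15 of the 45281 probes, for 9 of the 10 genes and out of 28928 gene names in all; no probe carried the symbol Cd5. Uterine RNA of 6 samples was labelled with Cy3 and hybridised to Illumina bead arrays, 3 arrays of mice at 15.5 days post coitum and 3 at 18.5 days. The labels give no strain, genotype or treatment and name the uterus as the tissue, whereas the design text names the myometrium, the muscle layer of the uterus. The design text counts more biological replicates per day than there are arrays here, and the number of animals per array is not stated, and the p-values therefore reflect variation among the 3 arrays of a day, part of which may be technical. All arrays lay on 1 chip, with the 3 of each day side by side, so that chip position and day cannot be told apart.

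T cells recognise peptides on MHC molecules through a receptor of 2 variable chains, which cannot signal alone and is held at the surface by the CD3 chains gamma, delta and epsilon and by the zeta chain Cd247. When the receptor binds, the coreceptors CD4 or CD8 bring the kinase Lck to it, Lck phosphorylates the tails of CD3 and zeta, and Zap70 docks there and phosphorylates the adaptors that carry the signal on. Natural killer cells, the most abundant lymphocytes of the uterus in early pregnancy, have no T cell receptor but use Lck, Zap70 and the zeta chain as well.

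Between the 2 days, the signals of Cd3g and Zap70 fell, whereas Cd3d, Cd3e and Lck did not pass the test and the coreceptor probes stayed close to background. The Cd3g signal at day 18.5 was 2.66-fold lower than at day 15.5, and the Zap70 signal was at least 2.02-fold lower. The Zap70 bound belongs to the background correction and offset used, and without background correction its fitted log2 change was -0.74. Zap70 was detected at day 15.5 only, so a difference was built into its entry into the test. Each group had 3 arrays.

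The start regions of 4 of these genes are shown to place the genes that fell beside relatives that did not pass the test. RefSeq holds 10 start regions for 7 of the 10 genes in assembly GRCm38.p6. The genes Cd3g and Cd3d lie on chromosome 9 head to head, with their starts 1355 bases apart, and Cd3e starts 27825 bases from Cd3d. Each sequence is the 250 bases before the first transcribed base, 5′ to 3′ on the gene's own strand, at chr9:44980432-44980681 (minus strand) for Cd3g, chr9:44981536-44981785 (plus strand) for Cd3d, chr1:36761548-36761797 (plus strand) for the most upstream start of Zap70 and chr4:129573642-129573891 (minus strand) for the most upstream start of Lck. Capitals mark TGTGGT, the core bound by RUNX factors, and AGGAAG, an ETS core with its flanks, searched on both strands; no matches overlapped.
Cd3g: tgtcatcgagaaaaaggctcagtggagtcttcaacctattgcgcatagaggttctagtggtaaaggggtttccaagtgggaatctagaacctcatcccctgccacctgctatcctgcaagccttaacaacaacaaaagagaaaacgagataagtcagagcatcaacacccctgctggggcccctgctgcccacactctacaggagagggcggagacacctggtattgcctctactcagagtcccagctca
Cd3d: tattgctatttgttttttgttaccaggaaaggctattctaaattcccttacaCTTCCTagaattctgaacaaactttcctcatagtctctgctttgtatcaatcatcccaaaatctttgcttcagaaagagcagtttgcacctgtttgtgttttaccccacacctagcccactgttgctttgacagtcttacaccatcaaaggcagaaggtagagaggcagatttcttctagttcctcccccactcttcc
Zap70: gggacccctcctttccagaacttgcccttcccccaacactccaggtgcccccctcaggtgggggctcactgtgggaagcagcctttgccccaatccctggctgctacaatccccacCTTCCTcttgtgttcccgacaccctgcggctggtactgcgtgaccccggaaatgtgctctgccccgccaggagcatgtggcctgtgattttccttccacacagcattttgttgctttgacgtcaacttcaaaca
Lck: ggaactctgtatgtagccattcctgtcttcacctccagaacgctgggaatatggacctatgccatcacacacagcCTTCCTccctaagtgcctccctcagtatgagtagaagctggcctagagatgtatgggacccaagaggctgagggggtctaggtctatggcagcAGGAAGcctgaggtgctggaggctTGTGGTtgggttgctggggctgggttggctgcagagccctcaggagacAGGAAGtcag
The Cd3g window held neither motif, the Cd3d and Zap70 windows each held 1 ETS core, and the Lck window held 3 ETS cores and 1 RUNX core. The counts differ between the starts of a gene: of the other Zap70 starts, 1 held 2 ETS cores and 1 RUNX core and 1 held neither, and the other Lck start held 1 ETS core. The Cd3e window held 2 ETS cores. Of 32851 windows of the same length, 29.5% held the ETS core and 14% the RUNX core. A match describes the letters only and shows no bound site.

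The level of each probe was read first against the negative controls of its array, since T cell transcripts are dilute in whole uterus. The deposited detection p-values were whole multiples of 1 over 936, the number of negative controls they imply, and a probe was called detected at a p under 0.05. Of the 15 probes, 3 were detected on all 6 arrays (1 each of Cd3e, Cd3g and Lck) and 7 on none (1 of Cd3e, both of Cd4, both of Cd8a, 1 of Cd8b1 and 1 of Zap70). Each value rested on 20 to 62 beads, with a median of 41.5. Across the arrays 43.6% to 46.5% of all probes were detected, and median unnormalized signals ran from 75.8 to 104.7. Signals were then normalized and expressed on the log2 scale, on which the lowest signal of a detected probe lay between 5.34 and 5.52.

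**Figure D1:**
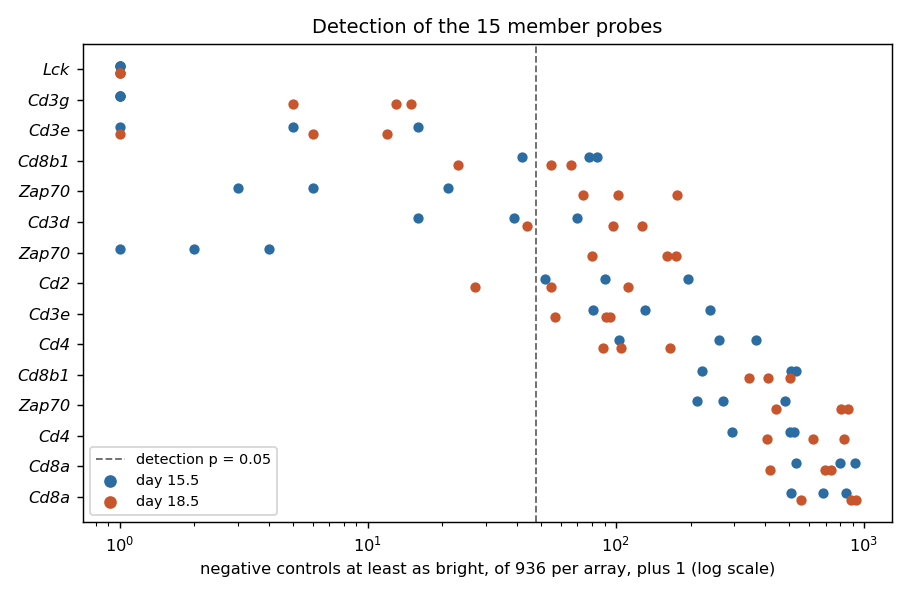
Rank of the 15 probes against the negative controls of each array: the horizontal axis gives the number of negative controls at least as bright, of 936, plus 1 on a log scale, with 1 point per array and day 15.5 in blue and day 18.5 in red. The dashed line marks a detection p of 0.05; Lck lies at the left edge on all 6 arrays, whereas the points of Cd4 and Cd8a all lie to the right of the line.

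A gene was tested when a probe was detected on at least 3 of the 6 arrays, and was represented by its brightest such probe. This held for 5 genes, Cd3g, Cd3d, Cd3e, Lck and Zap70, and not for Cd2, Cd4, Cd8a and Cd8b1. At a Benjamini-Hochberg adjusted p under 0.05 in limma over all 14081 genes tested, 2 of the 5 were lower at day 18.5, none was higher and 3 did not pass. Over all genes, 13.4% were lower and 12.7% higher. The median log2 change of the 5 genes was -0.29, against 0.02 over all genes. Zap70 entered the test only through its day 15.5 arrays, so a difference was built into its entry and the count is a description. The 5 genes were dim, with mean log2 signals of 5.4 to 6.89 against a median of 8.28; among the 4134 genes no brighter than the brightest of them, 13.2% were lower. By kept probe, 3 of 6 probes of these genes were lower and 0 higher, where 13.2% of all 20701 kept probes were lower.

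**Figure D2:**
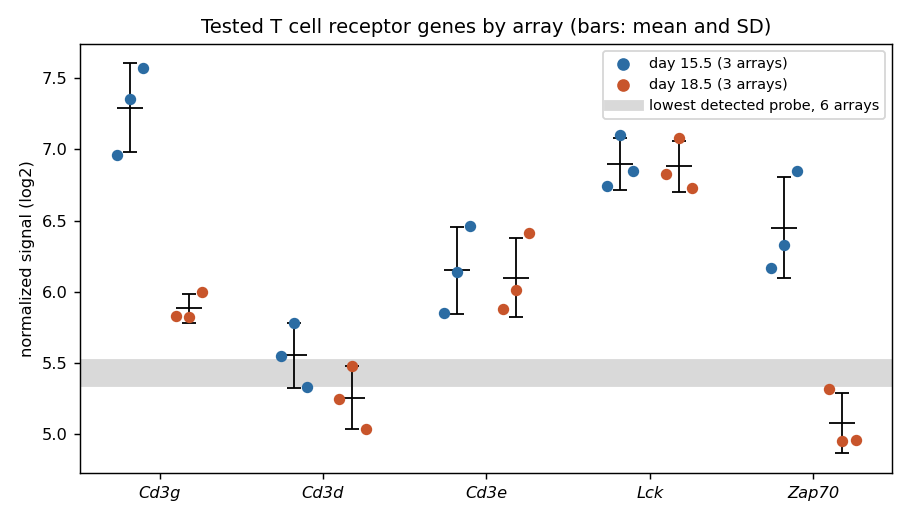
Normalized log2 signal of the 5 tested genes on each array, with day 15.5 in blue and day 18.5 in red; horizontal bars and whiskers give the mean and SD of 3 arrays, and the grey band spans the lowest signal of a detected probe over the 6 arrays, 5.34 to 5.52. Cd3g and Zap70 show no overlap between days, and the Zap70 points of day 18.5 lie at or under the band.

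Of the CD3 chains, which carry the signalling motifs of the receptor, Cd3g passed the test and Cd3d and Cd3e did not; the differences between chains, given further on, could not pass a test with these arrays. Cd3g, the gamma chain, read 6.96, 7.35 and 7.57 on the log2 scale on the arrays of day 15.5 and 5.83, 5.82 and 6.0 on those of day 18.5. Every array of day 18.5 lay below every array of day 15.5, and the probe was detected on all 6. Mean signals were 7.29 ± 0.31 and 5.88 ± 0.10 (SD, n = 3), a log2 change of -1.41 ± 0.16 (SE; limma adjusted p = 0.000318), with a 95% interval from -1.78 to -1.04. Before normalization the same beads gave 217.1, 238.0 and 256.3 intensity units at day 15.5 and 119.4, 104.3 and 97.9 at day 18.5. At day 15.5 no negative control was as bright as Cd3g on any array; at day 18.5, 14, 12 and 4 of 936 were. The authors' deposited table gives Cd3g a ratio of day 18.5 over day 15.5 of 0.306 with a false discovery rate of 0.0000.

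Cd3d, the delta chain, whose gene starts beside that of Cd3g, read 5.55, 5.78 and 5.33 at day 15.5 and 5.25, 5.48 and 5.04 at day 18.5 on the log2 scale. The days overlapped, and the probe was detected on 2 arrays of day 15.5 and 1 of day 18.5, so it sat at the detection limit. Its log2 change was -0.29 ± 0.16 (SE; limma adjusted p = 0.213), with a 95% interval of -0.66 to 0.07.

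Cd3e, the epsilon chain, which pairs with both gamma and delta, read 5.85, 6.14 and 6.46 at day 15.5 and 5.88, 6.01 and 6.41 at day 18.5 on the log2 scale, on a probe detected on all 6 arrays. The ranges nearly coincided. Means were 6.15 ± 0.30 and 6.10 ± 0.27 (SD, n = 3), the log2 change was -0.05 ± 0.19 (SE; limma adjusted p = 0.87) and its 95% interval ran from -0.48 to 0.38. A second Cd3e probe was detected on no array and read 5.07 ± 0.19 and 5.27 ± 0.10.

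The zeta chain Cd247 was not in the group and was looked at after its values were seen. Its 3 probes were detected on 1, 2 and 0 arrays of day 15.5 and on no array of day 18.5, and none passed the filter. Without the filter, their log2 changes were -0.76, -0.64 and -0.12, with limma adjusted p-values over all probes of 0.0259, 0.127 and 0.486.

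Of the kinases, Lck, which starts the phosphorylation cascade, was the brightest of the 5 genes by mean over the 6 arrays. It read 6.74, 7.10 and 6.85 at day 15.5 and 6.83, 7.08 and 6.73 at day 18.5 on the log2 scale. The days overlapped over almost their whole range, and no negative control was as bright on any array. Its log2 change was -0.01 ± 0.14 (SE; limma adjusted p = 0.961), with a 95% interval from -0.34 to 0.31, or 0.791 to 1.24 as a ratio of day 18.5 over day 15.5. Unnormalized signals were 196.5, 210.5 and 179.4 at day 15.5 and 173.0, 171.9 and 129.6 at day 18.5, on arrays whose median signals also differed. The Lck probe carried no accession and was assigned to the gene by its symbol alone.

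Zap70, the kinase that docks on the phosphorylated CD3 and zeta tails, had 3 probes. The brightest read 6.17, 6.33 and 6.85 at day 15.5 and 5.32, 4.95 and 4.96 at day 18.5 on the log2 scale. It was detected on all 3 arrays of day 15.5 and on none of day 18.5, where 79, 173 and 160 of the 936 negative controls were at least as bright. Mean signals were 6.45 ± 0.36 and 5.08 ± 0.21 (SD, n = 3) and the fitted log2 change was -1.37 ± 0.19 (SE; limma adjusted p = 0.000882). Since day 18.5 was not well above background, the fold is a bound: at least 2.02-fold lower, from the day 15.5 mean against a day 18.5 mean in which no array counted below its dimmest detected probe. The bound belongs to this background correction and offset.

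A second Zap70 probe was also detected on 3 arrays of day 15.5 and 0 of day 18.5, at 6.04 ± 0.30 and 5.12 ± 0.13 (SD, n = 3), at least 1.52-fold lower (limma adjusted p over kept probes = 0.00325). Its unnormalized signals were 129.6, 147.5 and 125.0 at day 15.5 and 87.9, 83.2 and 77.3 at day 18.5. The third probe was detected on no array and read 4.80 ± 0.11 and 4.59 ± 0.09. In the authors' deposited table the ratios of the 3 probes were 0.248, 0.376 and 0.678, with false discovery rates of 0.0000, 0.0012 and 0.0813.

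Among the coreceptors, which bind MHC molecules and mark the helper and cytotoxic T cell lineages, no gene could be tested. Both Cd4 probes lay between 61.9 and 90.8 unnormalized intensity units on all arrays, where 88 to 832 of the 936 negative controls were at least as bright. The Cd8a probes lay between 46.5 and 71.2. The brighter Cd8b1 probe read 110.7, 94.7 and 104.9 at day 15.5 and 104.0, 99.3 and 79.1 at day 18.5 in unnormalized units and was detected on 1 array of each day. In a fit of all genes without the filter, log2 changes were 0.19 for Cd4, 0.07 for Cd8a and 0.10 for Cd8b1, with limma adjusted p-values of 0.449, 0.724 and 0.734. At these signals a difference between days was not detectable. Of the adhesion receptors, Cd2, which binds Cd48 on the partner cell and is carried by T and natural killer cells, read 4.95, 5.21 and 5.48 at day 15.5 and 5.50, 5.09 and 5.53 at day 18.5 on the log2 scale and was detected on 1 array, at day 18.5. Its log2 change without the filter was 0.16 (limma adjusted p = 0.693).

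**Figure D3:**
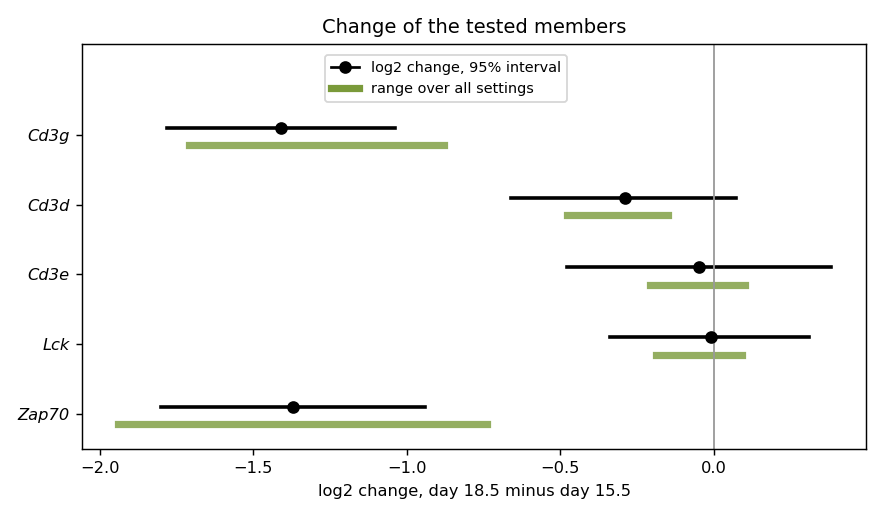
Log2 change, day 18.5 minus day 15.5, of the 5 tested genes: the point and black line give the change and its 95% interval, and the green bar the range of the change over all processing settings tried. The intervals of Cd3g (-1.78 to -1.04) and Zap70 (-1.80 to -0.94) lie below 0, and those of Cd3d, Cd3e and Lck span it.

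Whether the genes differed from each other in their change was tested on the difference of their log2 signals within each array, over all 10 pairs of the 5 genes, with a two-sided exact permutation test. With 3 arrays against 3 this exact permutation test cannot go below p = 0.1, so no pair could pass. The log2 change of Cd3d exceeded that of Cd3g by 1.12, and that of Cd3e exceeded it by 1.36; the change of Cd3g minus that of Lck was -1.4. In these 3 pairs, and in Cd3d against Lck at -0.28, the days did not overlap (exact permutation p = 0.1, adjusted p = 0.14 over the 10 pairs). The days did not overlap either in Zap70 against Lck, Cd3e and Cd3d (exact permutation p = 0.1 each), with the change lower in Zap70. No size is given, because Zap70 was not above background at day 18.5. In Zap70 against Cd3g the days overlapped (exact permutation p = 1.0). Zap70 entered only through its day 15.5 arrays, so a fall was built into its entry and its pairs are a description. The change of Cd3e minus that of Lck was -0.04 (exact permutation p = 0.8) and that of Cd3d minus Cd3e -0.24 (p = 0.5).

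The pattern of the tested members over the 6 arrays, as the mean of their signals with each gene centred on its own mean, was compared with those of 12203 genes detected on all arrays. Among the 5 genes most like it were Marveld1 (Pearson r = 0.998), Dcaf4 (r = 0.9964), Man2a1 (r = 0.996) and Ankrd1 (r = 0.9959). The log2 changes of these 4 genes were -0.48, -1.84, -0.77 and -0.93, and each was lower by limma, at adjusted p-values of 0.0187, 0.000218, 0.00275 and 0.00259. With 6 arrays in 2 groups such values describe a shared contrast and carry no test.

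In the wider T cell receptor pathway, 109 further genes in 6 lists had a probe and 56 were tested, of which 15 were lower, 2 higher and 39 not past the test. Over all genes, 13.4% were lower and 12.7% higher, which is the share to set beside each list's count as well. The median log2 change of the 56 genes was -0.12 against 0.02 over all genes. Tcrd-V1, Ctla4, Cxcr3 and Tcf7 passed the filter through the arrays of 1 day only, so a difference was built into their entry. Of the other 52 genes, 12 were lower and 1 higher. These 52 are not free of that limit, since Trbv13-2 and Sh2d2a were detected on 3 arrays of day 15.5 and 1 of day 18.5. The bounds of Tcrd-V1, Ctla4, Cxcr3 and Tcf7 below, like that of Zap70, belong to the background correction and offset used. The 15 lower genes were 4 proximal signalling genes, 4 costimulatory or coinhibitory receptors, 3 inhibitors of signalling, 2 receptor chain genes and 2 cytokine or homing receptors.

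**Figure D4:**
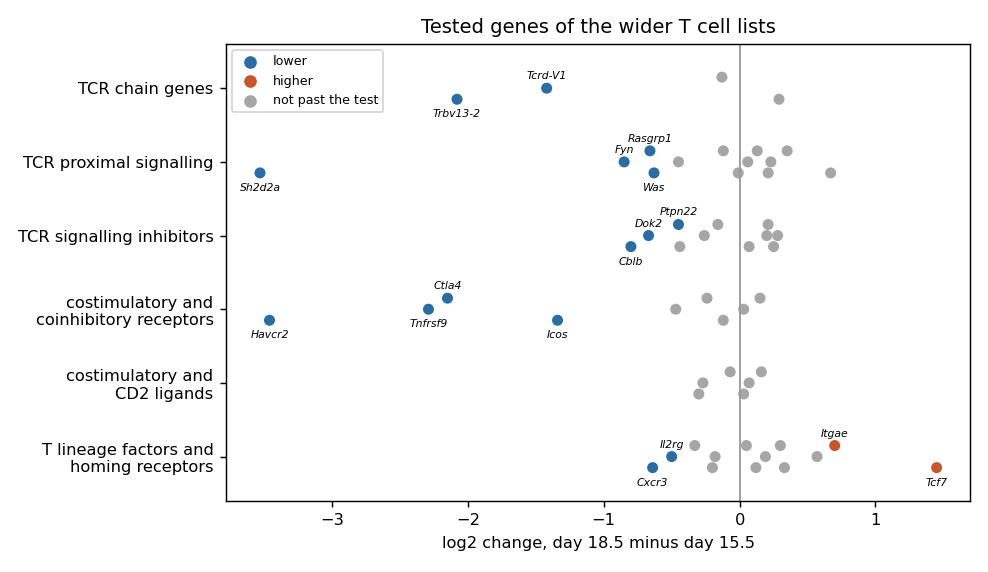
Log2 change, day 18.5 minus day 15.5, of the 56 tested genes of the 6 pathway lists, 1 point per gene, blue for lower, red for higher and grey for not past the test; the vertical offset within a list only separates points. Sh2d2a (-3.53) and Havcr2 (-3.46) lie far to the left, in an order that turns without background correction (-2.38 and -2.92), and the 2 red points are Itgae and Tcf7.

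Of the receptor chain genes, 17 had a probe, 4 were tested, 2 were lower and 2 did not pass, with a median log2 change of -0.77. A probe of the beta chain segment Trbv13-2, listed under an older symbol, read 7.36, 7.40 and 7.80 at day 15.5 and 5.45, 5.40 and 5.48 at day 18.5 on the log2 scale, a fitted change of -2.08 ± 0.14 (SE; limma adjusted p = 1.76e-05) that ran from -2.60 to -1.27 over the settings tried. The days lay far apart, and the probe was detected on 3 arrays of day 15.5 and 1 of day 18.5; a second probe of this segment was detected on none. A delta chain probe, Tcrd-V1, read 6.67, 6.67 and 6.77 at day 15.5 and 5.34, 5.21 and 5.31 at day 18.5, was detected at day 15.5 only and was at least 2.41-fold lower (limma adjusted p = 3.23e-05), although the fitted log2 change was -0.77 without background correction. These segments belong to multigene families, and what a probe reads among their copies is uncertain.

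Of 25 proximal signalling genes with a probe, 13 were tested, 4 were lower, none was higher and 9 did not pass, with a median log2 change of -0.01. Sh2d2a, an adaptor that binds Lck, read 8.65, 8.38 and 8.80 at day 15.5 and 4.89, 4.84 and 5.51 at day 18.5, a fitted log2 change of -3.53 ± 0.19 (SE; limma adjusted p = 7.27e-06). It was detected on 1 array of day 18.5, and the other two lay under the detection limit, so the size depends on the background correction: it ran from -4.25 to -2.38 over the settings tried. Fyn, a kinase related to Lck, fell by 0.85 on the log2 scale (limma adjusted p = 0.00503), Rasgrp1, which activates Ras after receptor binding, fell by 0.66 (0.0146) and Was, which drives actin assembly at the contact, fell by 0.63 (0.00789). The adaptor Nck1, the brightest of the list, had a log2 change of 0.13 (limma adjusted p = 0.465). Lat, the scaffold that Zap70 phosphorylates, and Plcg1, Prkcq and Themis, which act beside or after it, were among 9 genes of the list detected on no array.

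Of 16 genes that dampen receptor signalling, 11 were tested, 3 were lower and 8 did not pass, with a median log2 change of -0.16. Cblb, a ubiquitin ligase that limits activation, fell by 0.80 on the log2 scale (limma adjusted p = 0.0046), the adaptor Dok2 fell by 0.67 (0.025) and Ptpn22, a phosphatase that acts on Lck and Zap70, fell by 0.45 (0.0494). Of 2 kept Cblb probes, 1 was lower, and the mean of the probes gave a log2 change of -0.47 (limma adjusted p = 0.0194). Csk, the kinase that phosphorylates the inhibitory tyrosine of Lck, was the brightest and had a change of 0.25 (limma adjusted p = 0.223). The calls of Dok2 and Ptpn22 were lost when single arrays were left out, and that of Rasgrp1 without day 18.5 replicate 2 (limma adjusted p = 0.0546).

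Of 18 costimulatory and coinhibitory receptors with a probe, 9 were tested, 4 were lower and 5 did not pass, with a median log2 change of -0.47. Havcr2, or TIM-3, an inhibitory receptor also carried by natural killer and myeloid cells, read 10.06, 10.32 and 10.51 at day 15.5 and 7.21, 6.14 and 7.16 at day 18.5, a log2 change of -3.46 ± 0.27 (SE; limma adjusted p = 3.5e-05). Tnfrsf9, or 4-1BB, fell by 2.29 on the log2 scale (limma adjusted p = 8.52e-05) and Icos, the inducible costimulator, fell by 1.34 (0.00209). Ctla4, the inhibitory competitor of Cd28, was detected on the 3 arrays of day 15.5 and none of day 18.5, at least 2.75-fold lower (limma adjusted p = 0.0003), with a fitted log2 change of -1.29 without background correction. In the list of ligands, which named no partner of Havcr2 or Tnfrsf9, 6 genes were tested: Cd48, Cd80, Cd86, Cd274, Icosl and Cd40. None of the 6 passed the test, at a median log2 change of -0.02. Cd86, the brightest, had a change of -0.30 (limma adjusted p = 0.0762) and passed under 3 other settings, median scaling among them (-0.46, limma adjusted p = 0.016).

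Of 26 T lineage transcription factors, cytokine receptors and homing receptors, 13 were tested, 2 were lower, 2 higher and 9 not past the test, with a median log2 change of 0.12. Tcf7, the factor of T cell commitment and of naive and memory cells, read 4.92, 4.84 and 5.22 at day 15.5 and 6.32, 6.46 and 6.54 at day 18.5, and was at least 1.99-fold higher, since it was detected on no array of day 15.5 (limma adjusted p = 9.03e-05); without background correction its fitted log2 change was 0.79. Itgae, the integrin chain CD103 of lymphocytes that lodge in epithelium, rose by a log2 change of 0.70 (limma adjusted p = 0.00349). Cxcr3, a chemokine receptor of activated T and natural killer cells, was at least 1.16-fold lower (limma adjusted p = 0.00783) and the cytokine receptor chain Il2rg fell by 0.50 on the log2 scale (0.0464), a call that several settings lost. Ets1, the brightest, had a change of -0.18 (limma adjusted p = 0.373).

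Markers of other cells moved between the days as well. Their counts are to be set beside the shares over all genes, 13.4% lower and 12.7% higher. In whole tissue, fewer cells of a type and less RNA per cell cannot be told apart. Of 19 natural killer cell markers listed, 17 had a probe, 10 were tested, 6 were lower and none was higher, and their summed normalized signal was 8083 to 10341 at day 15.5 and 3279 to 3801 at day 18.5. Prf1, the pore-forming perforin, went from 12.19 ± 0.18 to 9.0 ± 0.29 on the log2 scale (SD, n = 3), a log2 change of -3.20. Klrg1 fell by 3.06 and Klrd1 fell by 2.61, while Fcgr3, the brightest, had a change of -0.11 (limma adjusted p = 0.614). The sum adds signals on the linear scale, so its fall rests largely on Prf1 and does not describe the markers in general. The defining markers Ncr1, Klrk1, Klra1, Klra9, Gzmb and Styk1 were detected on no array. The part of natural killer cells in the changes of Cd3g, Zap70 and the pathway genes was not tested.

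Of 10 markers shared by all leukocytes, 9 were tested and 6 were lower, where 13.4% of all genes were lower and 12.7% higher. Their summed signals were 11383 to 14251 at day 15.5 and 8902 to 9412 at day 18.5. Ptprc, the leukocyte antigen CD45, fell by 0.87 on the log2 scale (limma adjusted p = 0.0022), Coro1a fell by 0.81 and Lcp1 fell by 0.69, and Laptm5, the brightest, had a change of -0.39 (limma adjusted p = 0.052). Of 8 B cell markers with a probe, 2 were tested and neither passed; Ms4a1, Cd22, Pax5 and Blk were among those detected on no array, the summed signal was 786 to 1095 at day 15.5 and 671 to 692 at day 18.5, and Ighm, the brightest, had a change of -0.53 (limma adjusted p = 0.124). Of 11 macrophage markers tested, 1 was lower, and the sums overlapped, at 20618 to 26209 and 23117 to 25829, with Lyz2 the brightest at a change of 0.08. Dendritic cell markers, with 2 tested and Siglech higher by 0.66, summed to 277 to 334 and 300 to 330. Itgax, Flt3, Xcr1, Clec9a and Cd209a were detected on no array. The sums count undetected probes too, so the dendritic cell sums, like the trophoblast sums of day 15.5 below, lie close to background and give no level. Neutrophil markers, with 3 tested and 1 higher, summed to 428 to 553 and 542 to 595, and S100a8, the brightest, had a change of 0.12. The part of these cells in the results was not tested.

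The tissue label was checked in the same way. The shares over all genes, 13.4% lower and 12.7% higher, belong beside these counts too. All 8 smooth muscle markers were detected, 2 were lower, and their sums overlapped at 105785 to 119031 and 110791 to 119069, with Acta2 the brightest at 14.72 and 14.79 on the log2 scale. These values and sums use the brightest probe of a gene, and of 5 kept Acta2 probes 3 were lower. Of 7 epithelial markers tested, 7 were higher, with sums of 11383 to 17417 at day 15.5 and 33685 to 38582 at day 18.5 and Krt8 the brightest at a change of 1.12, although Epcam was detected on no array. Of 5 trophoblast and placental markers tested, 4 were higher, and the sum went from between 262 and 390 to between 4080 and 12487. Prl7b1, the brightest, lay under the detection threshold throughout day 15.5, so its rise is a bound, at least 95.4-fold. This bound holds only for the background correction and offset used. Without background correction the fitted log2 change of Prl7b1 was 5.48. Tpbpa, Gcm1, Hand1 and Ascl2 were detected on no array. Of 5 endothelial markers, 3 were lower, with sums of 7619 to 9263 and 4740 to 5493 and Emcn at a change of -0.57. Of 5 red cell markers, 1 was lower and 1 higher, with sums of 64686 to 67173 and 50255 to 56801, and Hbb-b1 had a change of -0.30. The part of these tissues in the fall of Cd3g and Zap70 was not tested.

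**Figure D5:**
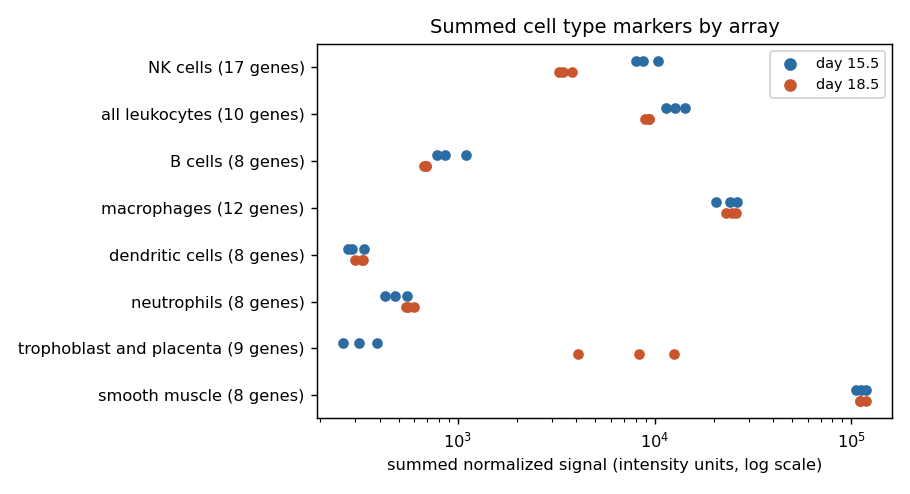
Summed normalized signal of the markers of 8 cell types on each array, on a log axis in intensity units, with day 15.5 in blue and day 18.5 in red. Natural killer cell sums separate by day (8083 to 10341 against 3279 to 3801), trophoblast sums separate the other way, and macrophage and smooth muscle sums overlap. The sums add linear signals, detected or not, and the fall of the natural killer cell sum rests largely on Prf1.

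The split of calls over all genes depended on the scaling. With quantile normalization 51.4% of the calls were lower, and with median scaling 69.0%, with the median change of all genes shifted by -0.12 on the log2 scale; the calls of the 5 genes were the same under both. Of genes whose days did not overlap, 20.8% of all tested were lower in every array of day 18.5, and 2 of the 5 tested receptor genes were.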

How the data were processed

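Uterine RNA was measured on 6 bead arrays, 3 per day. For each probe and array, the authors deposited an unnormalized intensity, a detection p-value and a bead number. Their comparison table holds background-corrected, normalized intensities and, per the file headers, the day 18.5 to day 15.5 ratio with its false discovery rate (FDR). How the authors corrected and tested these values is not stated in the labels or headers. Its ratios and rates are sorted apart from the probes and were joined by equality with the ratio of geometric means, within a relative tolerance of 1e-05, for 43887 of 43887 ratios. Names came from RefSeq (GRCm38.p6) for 26884 probes by accession, 5433 by symbol and 3943 by synonym; 9021 kept the file's name.

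Intensities were background-corrected, quantile-normalized and log2-transformed with neqc (offset 16) in limma 3.58.1 under R 4.3.3. Probes with a detection p under 0.05 on at least 3 of 6 arrays were kept (20701), the brightest per gene (14081 genes). Days were compared with lmFit and eBayes, two-sided, with Benjamini-Hochberg adjustment over all genes; the fit was tested on simulated data. Dimmer days with no detected array give a bound. Named genes were all members, up to 4 called genes and the brightest gene of each pathway list, the brightest gene of each marker list with up to 3 called genes for natural killer cells and leukocytes, and the 5 genes most like the members. Some genes that these rules name are not reported here. Members and lists were chosen with earlier results of these data known. Arrays have no read depth; their number limits the precision. Alternatives covered background correction, scaling, the filter, probe choice, the authors' values, variance settings, a replicate block and each array left out. Replicate numbers did not pair the arrays: deviations of same-numbered arrays correlated at -0.16, 0.15 and -0.06.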

Additional observations from a re-analysis of the deposited data

How the results depend on the processing

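The log2 changes of Cd3g (-1.71 to -0.88) and Zap70 (-1.94 to -0.74) stayed lower and past the threshold under every alternative that kept them. With a detection p under 0.01 required on all arrays, Lck was the 1 member still tested, so 0 members were lower, and of 32 pathway genes 8 were lower and 1 higher. Pathway genes called higher numbered 4 with the mean of a gene's probes and 4 with a replicate block. The block gave 1666 lower and 1551 higher genes in all, Cd3g an adjusted p of 0.000614 and Zap70 of 0.00305, and lost the call of Il2rg; the numbers do not pair the arrays. Leaving out single arrays moved the count of all lower genes between 1423 and 1731 and of higher genes between 1289 and 1687; the 2 members stayed lower each time, with each day then resting on as few as 2 arrays.

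Changes near 0 turned sign, without passing the test except for Acta2. Lck was 0.07 with array weights and -0.11 to 0.09 with an array left out, and Cd3e -0.21 to 0.10. Fcgr3 ran from -0.18 to 0.03, Lyz2 from -0.05 to 0.19 and S100a8 from -0.02 to 0.25 with an array left out; S100a8 was -0.04 with median scaling and -0.02 with array weights. Acta2 was -0.40 (limma adjusted p = 0.0214) with the mean of its probes. Calls near the threshold were lost for Il2rg under 10 settings, Ptpn22 under 9, Siglech under 5, Dok2 under 4, Marveld1 under 4 and Rasgrp1 without day 18.5 replicate 2, and gained for Laptm5 under 9, Hbb-b1 under 5, Cd86 under 3 and Ighm under 2; the cause was not tested. Signals close to the negative controls limit what can be said of Cd2, Cd4, Cd8a, Cd8b1 and Cd3d.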

Other observations

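A probe listed under the symbol Cd8b, an older name of Cd8b1, was left out because members were taken by the listed symbol. It carried no accession tying it to a gene, which also holds for the Lck probe and the brighter Cd4 probe among the members. It was detected on all 6 arrays at 11.57, 11.29 and 11.41 on the log2 scale at day 15.5 and 11.13, 11.23 and 11.26 at day 18.5, far above both probes with the symbol Cd8b1, which averaged 4.73 to 5.36 at day 15.5. Its log2 change was -0.22 (limma adjusted p = 0.218). With the Cd8a probes detected on no array, this probe is reported as a value only.

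The Cd6 receptor, a relative of Cd5, had 4 probes, none of which passed the detection filter. They were detected on 2, 1, 0 and 1 arrays of day 15.5 and on none of day 18.5, with log2 changes of -0.42, -0.60, -0.16 and -0.55. Cd28, the receptor that provides the main costimulatory signal, was detected on 1 array of day 15.5 and none of day 18.5, with a log2 change of -0.45 and a limma adjusted p over all probes of 0.151. Both genes were picked out after their values were seen.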
